A study of Homo sapiens with 12 samples.

Results

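The aminoacyl-tRNA synthetase genes were followed in hepatocellular carcinoma cells with and without knockdown of SLC6A8, the transporter that carries creatine into the cell. They were taken by gene name, as genes called by the letter of an amino acid and ARS (or EPRS, FARSA or FARSB), with or without a closing 1 or 2. The genes described are 35 of the 62703 listed for each cell line. The 16 names that end in 2 form the mitochondrial set and the other 19 the cytosolic set. GARS1 and KARS1 stand in the cytosolic set, although each gene also gives the enzyme of the mitochondrion. Messenger RNA was sequenced in 4 groups of 3 libraries: Hep3B cells with the hairpin shSLC6A8, Hep3B cells with the control hairpin shNC, Huh7 cells with shSLC6A8 and Huh7 cells with shNC. Hep3B and Huh7 are established human hepatocellular carcinoma lines. All 12 libraries, controls included, came from cells kept in hypoxia, for 24 hours per the series' design text, so no group shows normal oxygen. The oxygen level, the hairpin sequences, and whether the cells of a group were a pool or a clone were not given in the sources used here. The labels do not call the replicates separate cultures, and a p-value then covers only the spread among the 3 libraries of a group, which may be technical.

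Each synthetase joins 1 amino acid to the transfer RNAs that decode it, using ATP, and so supplies the ribosome with charged tRNA. Human cells keep separate synthetases for the ribosomes of the cytosol and of the mitochondrion, nearly all from separate nuclear genes, and the mitochondrial ribosome makes core subunits of the respiratory chain. Several cytosolic synthetases sit together in the multisynthetase complex, held by the scaffold proteins AIMP1, AIMP2 and EEF1E1. Genes of many cytosolic synthetases are known targets of ATF4, a factor that acts in the integrated stress response and binds composite elements shared by C/EBP and ATF proteins.

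RefSeq windows around the gene start (250 bases before it to 50 after it, GRCh38.p14) were at hand for 30 of the 35 genes, 16 cytosolic and 14 mitochondrial. They were searched on both strands for the C/EBP-ATF response element in the form TTGCATCA (TGATGCAA on the other strand), and for TTNCATCA (TGATGNAA), which includes every match of the first. The 6 cytosolic windows with TTGCATCA are shown first, and then those of GARS1 and YARS2, which match TTNCATCA alone. Each is 30 bases long and runs 5′ to 3′ on the gene's strand, with the match in capitals.
AARS1 (chr16:70289675-70289704, minus strand): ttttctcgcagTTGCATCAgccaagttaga
CARS1 (chr11:3057407-3057436, minus strand): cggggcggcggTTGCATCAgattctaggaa
IARS1 (chr9:92293692-92293721, minus strand): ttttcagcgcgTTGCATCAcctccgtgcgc
MARS1 (chr12:57488053-57488082, plus strand): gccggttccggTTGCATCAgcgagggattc
NARS1 (chr18:57621804-57621833, minus strand): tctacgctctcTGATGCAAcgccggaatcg
TARS1 (chr5:33440956-33440985, plus strand): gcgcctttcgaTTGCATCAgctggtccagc
GARS1 (chr7:30594834-30594863, plus strand): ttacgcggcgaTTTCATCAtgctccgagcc
YARS2 (chr12:32756076-32756105, minus strand): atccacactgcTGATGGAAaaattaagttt
TTGCATCA was present in 6 of 16 cytosolic windows (37.5%) and in 0 of 14 mitochondrial windows, and in 295 of the 27305 windows of all genes (1.08%). TTNCATCA was present in 7 of 16 cytosolic windows (43.8%) and 1 of 14 mitochondrial windows (7.14%), and in 1217 of all 27305 (4.46%). Counted with the start used for the window as position 1 and the base before it as -1, the match began at -2 in CARS1, -4 in MARS1, -13 in IARS1, 3 in TARS1 and 15 in NARS1, close to that start. It began at -187 in AARS1, -33 in GARS1 and -197 in YARS2. For TARS1 and GARS1 the window's start is not the first base of the gene's listed span (chr5:33440696 and chr7:30594735). Both of these matches lie inside the span. All 7 cytosolic genes with a match are among the 13 widely described as ATF4 targets, of which 10 had a window. That list was chosen with earlier results of these data known, and whether it rests on such elements was not checked. Of 12 windows of ATF4 and stress response genes (listed below), 1 held TTGCATCA (8.33%) and 3 held TTNCATCA (25.0%). A match is a run of letters and no evidence of binding.

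The libraries held 24201940 to 27445278 estimated counts in Hep3B shSLC6A8, 21065965 to 23237892 in Hep3B shNC, 23748949 to 28078068 in Huh7 shSLC6A8 and 23156031 to 24565972 in Huh7 shNC. The hairpin's target SLC6A8 was low in all knockdown libraries. In Hep3B it had 34.6, 33.9 and 35.1 CPM in shSLC6A8 libraries, against 362, 378 and 371 CPM in shNC libraries (log2 -3.42 ± 0.050, adjusted p = 2.13e-10). In Huh7 it had 8.63, 8.60 and 11.02 CPM in shSLC6A8 libraries, against 35.6, 36.9 and 36.7 CPM in shNC libraries (log2 -1.95 ± 0.091, adjusted p = 1.02e-11). All 8 hepatocyte markers were present in every library (summed TPM 9972 to 15613), against summed TPM of 0.56 to 7.02 for 3 fibroblast markers (COL1A1 up to 5.73, PDGFRB up to 2.76 and COL3A1 up to 0.21 in any library) and 0.60 to 2.46 for 3 endothelial markers (PECAM1 up to 2.46, VWF up to 0.52 and CDH5 up to 0.040). Of 3 leukocyte markers LYZ was high at 184 to 665 TPM in the libraries, while PTPRC reached 0.38 and CD3E 0.11. Mitochondrial ribosomal RNA took a share of counts that moved with the hairpin: it was 1.13% to 1.17% in Hep3B shSLC6A8 against 2.17% to 2.20% in Hep3B shNC, and 0.705% to 0.711% in Huh7 shSLC6A8 against 1.06% to 1.12% in Huh7 shNC. Its part in the results was not tested.

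Synthetase transcripts were plentiful, and the cytosolic genes stood well above the mitochondrial ones (TPM is a transcript abundance scaled for gene length and library total, which allows genes to be compared). The median level over the 19 cytosolic genes was 87.8 TPM in Hep3B shSLC6A8, 71.3 in Hep3B shNC, 90.2 in Huh7 shSLC6A8 and 91.5 in Huh7 shNC. Over the 16 mitochondrial genes it was 17.7, 15.9, 19.96 and 15.8 TPM in the same groups. MARS1, the methionine enzyme, had the highest level in Hep3B shSLC6A8 (223 ± 8.67 TPM, mean ± SD, n = 3), Huh7 shSLC6A8 (257 ± 3.59) and Huh7 shNC (309 ± 5.62). In Hep3B shNC the glutamine enzyme QARS1 led at 193 ± 3.98 TPM, ahead of MARS1, whose 3 libraries were at 173, 156 and 127 TPM. FARSB, the beta subunit of the phenylalanine enzyme, was the lowest cytosolic gene in every group, at 22.2 ± 1.26 and 16.9 ± 0.660 TPM in Hep3B shSLC6A8 and shNC, and 17.9 ± 0.310 and 12.02 ± 0.252 TPM in Huh7 shSLC6A8 and shNC. Its partner FARSA, the alpha subunit, was at 89.4 ± 2.66, 76.5 ± 2.94, 96.4 ± 5.14 and 87.1 ± 0.871 TPM in the same order of groups.

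The isoleucine enzyme IARS2 was the highest mitochondrial gene in 3 groups, at 88.6 ± 4.31 TPM in Hep3B shSLC6A8, 83.9 ± 2.10 in Hep3B shNC and 79.7 ± 3.05 in Huh7 shSLC6A8. In Huh7 shNC the arginine enzyme RARS2 was highest at 79.7 ± 2.34 TPM, against 42.99 ± 2.95 for IARS2. The lowest were the proline enzyme PARS2 in Hep3B (4.32 ± 0.0569 TPM in shSLC6A8 and 3.15 ± 0.169 in shNC) and the tryptophan enzyme WARS2 in Huh7 (7.75 ± 0.309 in shSLC6A8 and 5.84 ± 0.250 in shNC). When the 35 genes were put in order of level, the 3 libraries of neighbours overlapped for 20 of 34 neighbouring pairs in Hep3B shSLC6A8, 24 in Hep3B shNC, 19 in Huh7 shSLC6A8 and 21 in Huh7 shNC, so the order of those neighbours is not separated from the spread between libraries.

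**Figure D1:**
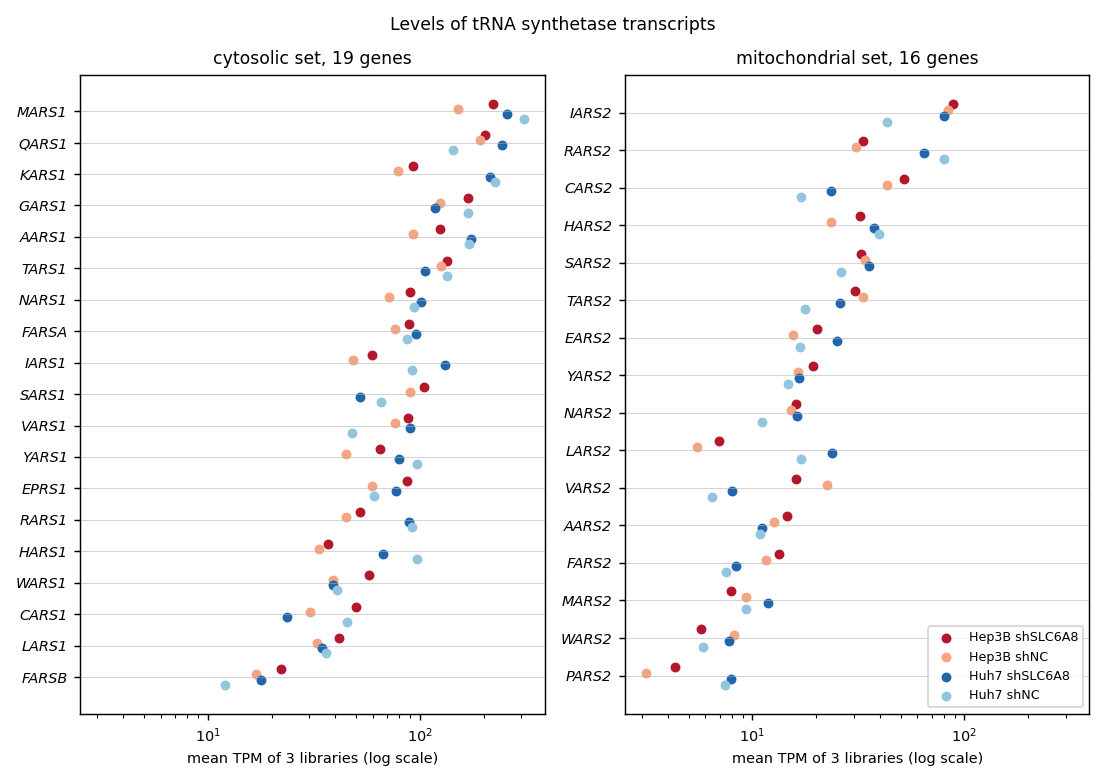
Mean TPM of 3 libraries (log scale) of the 19 cytosolic genes (left) and 16 mitochondrial genes (right) in the 4 groups, ordered by the mean over groups. MARS1 leads the cytosolic set and FARSB ends it, while IARS2 leads the mitochondrial set and PARS2 ends it.

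The control cells of the lines differed in many of these genes. The TPM tables of the lines were normalized separately, so levels are set side by side without a test. Of the cytosolic genes, 4 were higher in all Hep3B shNC libraries than in any Huh7 shNC library, 12 were lower and 3 overlapped. Of the mitochondrial genes, 9 were higher in Hep3B, 4 lower and 3 overlapped. Among the 14796 genes tested in both lines, 39.4% were higher and 37.2% lower in this way. The largest ratios, Hep3B over Huh7, were 3.47 for the valine enzyme VARS2 (22.5 ± 0.693 against 6.47 ± 0.773 TPM) and 2.55 for the cysteine enzyme CARS2 (43.3 ± 2.82 against 17.00 ± 0.485 TPM). At the other end stood the leucine enzyme LARS2 with 0.322 (5.49 ± 0.265 against 17.02 ± 0.981 TPM), the histidine enzyme HARS1 with 0.346 (33.4 ± 0.150 against 96.7 ± 1.17) and the lysine enzyme KARS1 with 0.350 (79.2 ± 3.34 against 226 ± 4.05).

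The balance of the sets differed between the hairpins, and in opposite directions in the lines; sums over the members are described here without a test. Summed over the 19 cytosolic genes, Hep3B shSLC6A8 libraries held 1799, 1836 and 1744 TPM, against 1443, 1457 and 1398 TPM in Hep3B shNC libraries. Summed over the 16 mitochondrial genes they held 393, 406 and 381 TPM, against 374.03, 374.14 and 356 TPM in Hep3B shNC libraries. The cytosolic sum was higher by the larger step, and the ratio of the sums was 4.56 ± 0.032 in Hep3B shSLC6A8 and 3.90 ± 0.037 in Hep3B shNC (SD, n = 3 each), with no overlap between libraries. In Huh7 the cytosolic sums overlapped, at 2053, 2000.3 and 1992 TPM in shSLC6A8 libraries and 2069.95, 1954 and 2030.3 TPM in shNC libraries. The mitochondrial sums did not: 409, 408 and 391 TPM in shSLC6A8, against 336.9, 316 and 336.6 TPM in shNC. The Huh7 ratio was thus lower with the knockdown, 5.01 ± 0.102 in shSLC6A8 and 6.12 ± 0.077 in shNC. Without GARS1 and KARS1 the ratios were 3.89 and 3.34 in Hep3B shSLC6A8 and shNC, and 4.18 and 4.92 in Huh7 shSLC6A8 and shNC. TPM is taken per library total, and on library totals the median gene was itself higher with the knockdown, by a log2 change of 0.20 in Hep3B and 0.11 in Huh7. A ratio within a library is free of that shift. That shift is not the only difference between TPM and counts. In Huh7 the cytosolic sums overlapped in TPM, yet on counts scaled by library totals the cytosolic median log2 change was -0.143. MARS1 averaged 257 TPM in Huh7 shSLC6A8 and 309 in Huh7 shNC, a smaller step than its log2 change of -0.56 on library totals. Why TPM and counts differ was not tested.

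**Figure D2:**
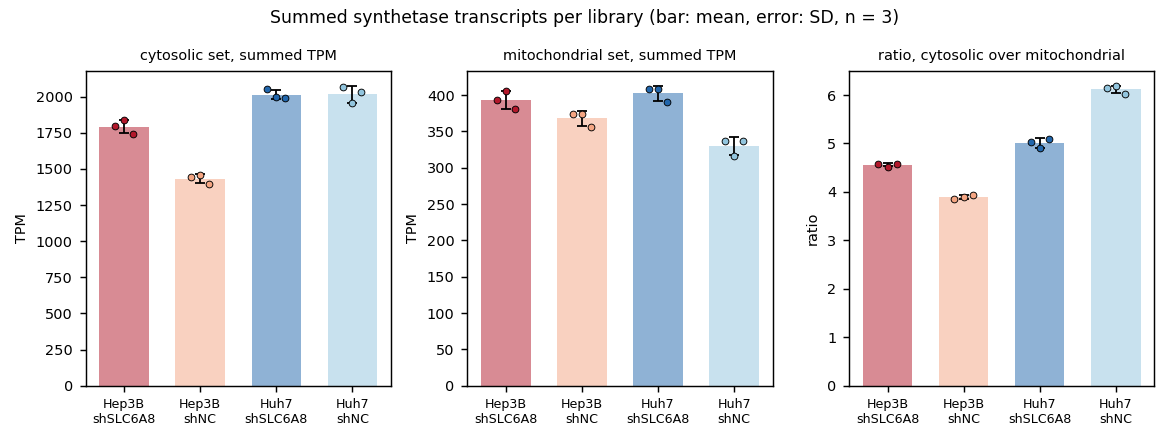
Summed TPM of the cytosolic set, of the mitochondrial set, and their ratio, in every library (points), with the mean (bar) and SD (error bar, n = 3). The ratio is higher in Hep3B shSLC6A8 (4.56) than in Hep3B shNC (3.90), and lower in Huh7 shSLC6A8 (5.01) than in Huh7 shNC (6.12).

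Changes of single genes were tested on the estimated counts, scaled by TMM so that the median gene stays near 0 (median log2 change over all genes 0.013 in Hep3B and 0.001 in Huh7). CPM is the count so scaled, relative to library size, and a gene was called at an adjusted p under 0.05 in edgeR's quasi-likelihood test, with n = 3 per group. All 35 genes passed the filter on low counts in both lines. In bulk RNA, fewer cells that express a gene and less RNA per cell cannot be told apart.

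In Hep3B, the cytosolic synthetases that changed were mostly higher with knockdown of SLC6A8, and the mitochondrial ones that changed were mostly lower, although the mitochondrial calls turned to 6 higher and 2 lower when counts were scaled by library totals. Of the 19 cytosolic genes 8 rose, 1 fell and 10 were not called, with a median log2 change of 0.11. Of all 16181 genes tested in Hep3B, 40.1% were called, 18.9% higher and 21.2% lower. Libraries did not overlap for 11 cytosolic genes in the higher direction and 1 in the lower, against 25.2% and 25.9% of all genes. With library totals in place of TMM, 18 cytosolic genes were called higher and 0 lower, the remaining gene, QARS1, having a log2 change of 0.0078, while all genes split into 6230 higher and 1941 lower calls in place of 3061 and 3427. The cytosolic median was then 0.30, still above the 0.20 of all genes.

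CARS1, the cysteine enzyme (ENSG00000110619, chr11:3000929-3057423 in GRCh38.p14), rose the most in Hep3B, with 78.4, 79.9 and 80.3 CPM in shSLC6A8 libraries, against 54.4, 57.5 and 55.4 CPM in shNC libraries (log2 0.51 ± 0.052, adjusted p = 3.35e-05). Every knockdown library lay above every control. MARS1 (ENSG00000166986, chr12:57488068-57516652), the methionine enzyme of the multisynthetase complex, had 201, 193 and 203 CPM in shSLC6A8 libraries, against 149, 163 and 160.2 CPM in shNC libraries (log2 0.34 ± 0.051, adjusted p = 0.000492). The tryptophan enzyme WARS1, which interferon also induces, had 66.8, 64.6 and 66.3 CPM in shSLC6A8 libraries, against 51.4, 51.2 and 55.6 CPM in shNC libraries (log2 0.32 ± 0.057, adjusted p = 0.00141), and the tyrosine enzyme YARS1 had 101, 101 and 108 CPM in shSLC6A8 libraries, against 80.8, 86.1 and 83.9 CPM in shNC libraries (log2 0.31 ± 0.052, adjusted p = 0.0012). Smaller rises were seen for EPRS1, the fused glutamate and proline enzyme (0.23 ± 0.052), GARS1, the glycine enzyme (0.22 ± 0.049), FARSB (0.17 ± 0.055) and AARS1, the alanine enzyme (0.16 ± 0.045), with adjusted p of 0.00573, 0.00546, 0.0294 and 0.0176. QARS1, the glutamine enzyme, was the gene that fell, though not on library totals (log2 0.0078): it had 182, 167 and 176 CPM in shSLC6A8 libraries, against 191, 203 and 201 CPM in shNC libraries (log2 -0.18 ± 0.051, adjusted p = 0.017). The 10 genes not called ranged from -0.043 (HARS1) to 0.12 (NARS1). The call of AARS1 was lost when any shNC library or shSLC6A8 replicate 1 was left out, and that of FARSB when any shNC library or shSLC6A8 replicate 1 or 3 was left out. The call of QARS1 was lost without shNC replicate 2 or 3 and at an adjusted p threshold of 0.01, which leaves 0 cytosolic genes called lower in edgeR, although its log2 change was below 0 there.

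Of the 16 mitochondrial genes in Hep3B, 1 rose, 5 fell and 10 were not called, with a median log2 change of -0.083. The shares called were 6.25% higher and 31.2% lower, against 18.9% and 21.2% of all genes tested. VARS2, the valine enzyme (ENSG00000137411, chr6:30914238-30926459), had 33.5, 29.9 and 28.3 CPM in shSLC6A8 libraries, against 48.3, 50.5 and 48.9 CPM in shNC libraries (log2 -0.69 ± 0.074, adjusted p = 5.23e-05). WARS2, the tryptophan enzyme (ENSG00000116874, chr1:119031216-119140672), had 10.2, 11.04 and 9.78 CPM in shSLC6A8 libraries, against 16.2, 17.1 and 15.4 CPM in shNC libraries (log2 -0.66 ± 0.091, adjusted p = 0.000297), and MARS2, the methionine enzyme, had 14.3, 17.6 and 16.3 CPM in shSLC6A8 libraries, against 25.2, 20.97 and 20.2 CPM in shNC libraries (log2 -0.46 ± 0.11, adjusted p = 0.0072). In these 3 genes all knockdown libraries lay below all controls. The threonine enzyme TARS2 (log2 -0.24 ± 0.067, adjusted p = 0.0173) and IARS2 (log2 -0.14 ± 0.044, adjusted p = 0.0251) fell by less. HARS2, the histidine enzyme, was the gene that rose, with 51.5, 51.1 and 54.4 CPM in shSLC6A8 libraries, against 40.3, 46.8 and 45.9 CPM in shNC libraries (log2 0.24 ± 0.071, adjusted p = 0.0215). The 10 genes not called ranged from -0.14 (SARS2) to 0.24 (PARS2). Libraries did not overlap for 2 mitochondrial genes in the higher direction and 7 in the lower, against 25.2% and 25.9% of all genes.

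Several calls of the Hep3B mitochondrial set were unsteady. The call of TARS2 was lost without shNC replicate 3 and that of IARS2 without shNC replicate 2 or 3 or shSLC6A8 replicate 1 or 3, so that without shNC replicate 3 only VARS2, WARS2 and MARS2 were called lower. The call of HARS2 was lost without shNC replicate 1 or shSLC6A8 replicate 1 or 3. The median was -0.048 without shSLC6A8 replicate 2. On library totals 6 mitochondrial genes were called higher and 2 lower, and the median was 0.107, with opposite sign but below the 0.20 of all genes. IARS2 then had a log2 change of 0.047, and the calls of MARS2 (-0.27) and TARS2 (-0.047) were lost.

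In Huh7, with TMM scaling, the sets moved the other way: most cytosolic synthetases fell, and most mitochondrial ones that were called rose. For the mitochondrial set this opposition between lines depends on the scaling. On library totals its median was above 0 in both lines, at 0.107 in Hep3B and 0.288 in Huh7, against 0.203 and 0.105 for all genes. With TMM, 13 of the 19 cytosolic genes fell, 5 rose and 1 was not called (FARSA at -0.036), with a median log2 change of -0.25. Of all 17022 genes tested in Huh7, 61.8% were called, 30.9% higher and 31.0% lower, so calls are common in this line. Libraries did not overlap for 13 cytosolic genes in the lower direction and 5 in the higher, against 33.1% and 33.5% of all genes. On library totals the cytosolic set had 5 calls higher and 11 lower with a median of -0.14, while all genes split into 6325 higher and 4275 lower calls in place of 5253 and 5272.

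CARS1 fell the most of all 35 genes, with 38.01, 42.3 and 36.3 CPM in shSLC6A8 libraries, against 88.6, 86.04 and 83.3 CPM in shNC libraries (log2 -1.14 ± 0.064, adjusted p = 9.48e-11). It was the only synthetase past a log2 change of 1 in either line. Genes called past that step made up 7.68% in the lower and 7.50% in the higher direction in Huh7, and 3.71% and 3.13% in Hep3B. CARS1 in Huh7 was also the only synthetase marked significant in the authors' deposited comparison. Their adjusted p was under 0.05 for 26 of the 35 genes in Huh7 and 14 in Hep3B. The mark therefore does not rest on that threshold alone. GARS1 (ENSG00000106105, chr7:30594735-30634033) had 197, 187 and 189 CPM in shSLC6A8 libraries, against 316, 319 and 316 CPM in shNC libraries (log2 -0.73 ± 0.045, adjusted p = 3.11e-10). HARS1 (ENSG00000170445, chr5:140673905-140691370) had 93.8, 101 and 95.7 CPM in shSLC6A8 libraries, against 152, 162 and 153 CPM in shNC libraries (log2 -0.69 ± 0.051, adjusted p = 3.25e-09), and MARS1 had 249, 249.6 and 254 CPM in shSLC6A8 libraries, against 397, 405 and 393 CPM in shNC libraries (log2 -0.67 ± 0.044, adjusted p = 7.02e-10). Groups of libraries were far apart for all 4 of these genes. The serine enzyme SARS1 (-0.53 ± 0.059), the threonine enzyme TARS1 (-0.52 ± 0.048) and YARS1 (-0.48 ± 0.048) fell by about the same step, with adjusted p of 5.94e-07, 6.45e-08 and 1.95e-07. WARS1 (-0.33 ± 0.060), the leucine enzyme LARS1 (-0.25 ± 0.051), KARS1 (-0.25 ± 0.044), the arginine enzyme RARS1 (-0.24 ± 0.051), AARS1 (-0.14 ± 0.045) and the asparagine enzyme NARS1 (-0.13 ± 0.048) fell by less. Calls of AARS1 and NARS1 did not hold throughout: that of AARS1 was lost without shNC replicate 1 or shSLC6A8 replicate 2, and that of NARS1 without shNC replicate 1 or 3 or when any shSLC6A8 library was left out. On library totals both calls were lost, with log2 changes of -0.040 for AARS1 and -0.025 for NARS1. In TPM both means were higher in shSLC6A8 than in shNC, at 174.3 against 170.3 for AARS1 and 100.9 against 93.8 for NARS1. The TPM of the libraries overlapped for both genes.

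The cytosolic genes that rose in Huh7 were led by VARS1, the valine enzyme (ENSG00000204394, chr6:31777518-31795752), with 221, 217 and 229 CPM in shSLC6A8 libraries, against 130.2, 128 and 124 CPM in shNC libraries (log2 0.80 ± 0.047, adjusted p = 1.78e-10). QARS1 had 207, 195 and 211 CPM in shSLC6A8 libraries, against 146, 142 and 140.4 CPM in shNC libraries (log2 0.51 ± 0.048, adjusted p = 6.86e-08). IARS1, the isoleucine enzyme, had 397, 402 and 404 CPM in shSLC6A8 libraries, against 306, 278 and 292 CPM in shNC libraries (log2 0.46 ± 0.047, adjusted p = 2.16e-07). QARS1 and IARS1 are members of the multisynthetase complex, and so is EPRS1, which rose by 0.29 ± 0.046 (adjusted p = 3.21e-05). FARSB rose by 0.37 ± 0.054 (adjusted p = 1.36e-05), while its partner subunit FARSA had 119, 108 and 117 CPM in shSLC6A8 libraries, against 119, 124 and 110.2 CPM in shNC libraries (log2 -0.036 ± 0.056, adjusted p = 0.597), with overlapping groups.

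Of the 16 mitochondrial genes in Huh7, 7 rose, 2 fell and 7 were not called, with a median log2 change of 0.18. The shares called were 43.8% higher and 12.5% lower, against 30.9% and 31.0% of all genes tested. IARS2 (ENSG00000067704, chr1:220094132-220148041) rose the most, with 193, 204 and 197 CPM in shSLC6A8 libraries, against 125, 119 and 125 CPM in shNC libraries (log2 0.69 ± 0.047, adjusted p = 1.41e-09). The serine enzyme SARS2 had 32.5, 32.99 and 34.4 CPM in shSLC6A8 libraries, against 23.97, 24.7 and 22.2 CPM in shNC libraries (log2 0.50 ± 0.069, adjusted p = 8.46e-06), and TARS2 had 41.7, 43.3 and 44.5 CPM in shSLC6A8 libraries, against 33.3, 32.2 and 29.9 CPM in shNC libraries (log2 0.44 ± 0.065, adjusted p = 1.43e-05). Knockdown and control libraries of these genes did not overlap. The asparagine enzyme NARS2 (0.36 ± 0.093), the glutamate enzyme EARS2 (0.34 ± 0.062), LARS2 (0.29 ± 0.058) and CARS2 (0.22 ± 0.086) also rose. The libraries of CARS2 overlapped, though, and its call was lost in DESeq2 and without shNC replicate 1 or 3 or shSLC6A8 replicate 1 or 2. RARS2 went against the set, with 91.99, 94.7 and 94.1 CPM in shSLC6A8 libraries, against 124, 138 and 125 CPM in shNC libraries (log2 -0.46 ± 0.053, adjusted p = 9.27e-07), and so did HARS2 (log2 -0.27 ± 0.055, adjusted p = 0.000411). Of the genes not called, MARS2, VARS2 and WARS2 had log2 changes of 0.15, 0.18 and 0.19, the tyrosine enzyme YARS2 and AARS2 of -0.18 and -0.13, PARS2 of -0.10 and FARS2 of 0.016. On library totals 10 mitochondrial genes were called higher and 2 lower.

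**Figure D3:**
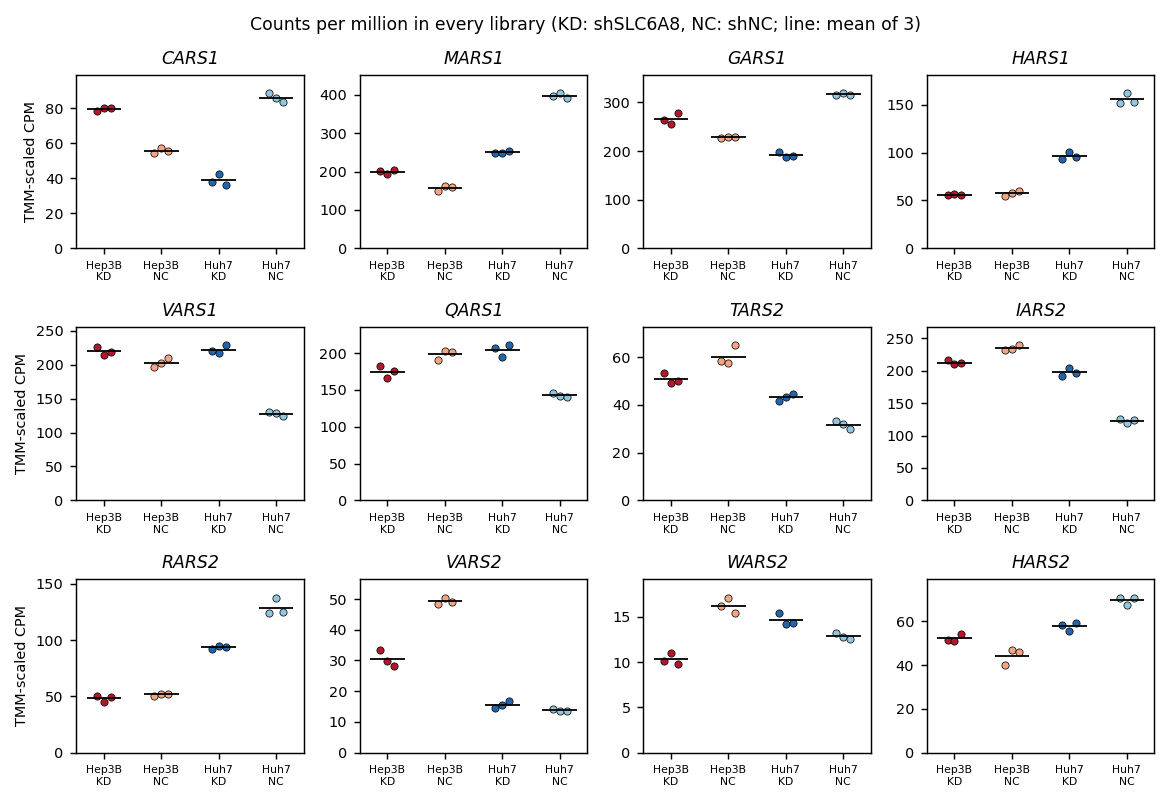
CPM scaled by TMM within each line, in every library (points; the line is the mean of 3) for 6 cytosolic and 6 mitochondrial genes among those the text describes. CARS1 is higher in Hep3B shSLC6A8 (78.4 to 80.3) than in Hep3B shNC, and lower in Huh7 shSLC6A8 (36.3 to 42.3) than in Huh7 shNC; scaling was done line by line, so the lines are not compared.

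**Figure D4:**
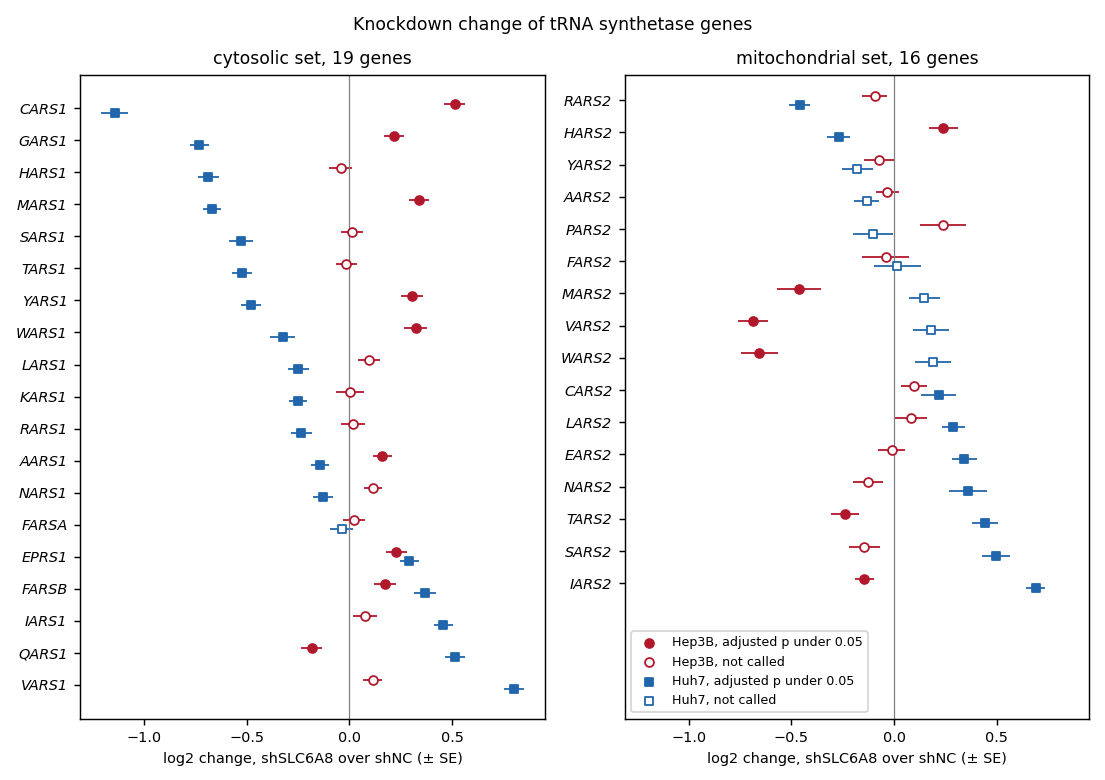
Log2 change, shSLC6A8 over shNC, with its standard error, of each cytosolic (left) and mitochondrial (right) gene in Hep3B (circles) and Huh7 (squares); filled symbols were called. Between CARS1 (-1.14) and VARS1 (0.80) the Huh7 values of the cytosolic set run mostly below 0, and those of the mitochondrial set mostly above 0. The Hep3B values of VARS2 (-0.69), WARS2 (-0.66) and MARS2 (-0.46) lie farther from 0 than their Huh7 values.

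The difference of the knockdown change between lines was tested directly, as an interaction over all 12 libraries, coded as the Hep3B change minus the Huh7 change. The sets parted: of the cytosolic genes 13 had a positive and 4 a negative difference, with a median of 0.31, and of the mitochondrial genes 2 had a positive and 8 a negative one, with a median of -0.275. Of all 18570 genes tested, 47.1% were called, 23.1% positive and 24.0% negative, with a median of 0.021. CARS1 had the largest difference, 1.66 ± 0.082 (adjusted p = 6.45e-11), having risen in Hep3B and fallen in Huh7. MARS1 (1.01 ± 0.063), GARS1 (0.95 ± 0.062) and YARS1 (0.79 ± 0.068) came next in the positive direction. VARS2 (-0.86 ± 0.11), WARS2 (-0.84 ± 0.12) and IARS2 (-0.83 ± 0.060) led in the negative direction. On library totals the counts were 13 positive and 3 negative for the cytosolic set, and 3 positive and 8 negative for the mitochondrial set.

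Called in both lines in opposite directions were 7 cytosolic genes: AARS1, CARS1, GARS1, MARS1, WARS1 and YARS1 rose in Hep3B and fell in Huh7, and QARS1 fell in Hep3B and rose in Huh7. Of the mitochondrial genes IARS2 and TARS2 fell in Hep3B and rose in Huh7, and HARS2 did the reverse. How many of all genes were called in opposite directions was not counted, so this tally has no background to be set against. Of all genes tested, 40.1% were called in Hep3B and 61.8% in Huh7. The Hep3B side of this tally is the less steady: on library totals QARS1 and IARS2 turned to 0.0078 and 0.047 and the call of TARS2 was lost, and the Hep3B calls of AARS1, QARS1, IARS2, TARS2 and HARS2 were each lost when some library was left out. On the Huh7 side the call of AARS1 was lost on library totals and when some library was left out. In TPM the means of QARS1 and IARS2 in Hep3B, and of AARS1 in Huh7, were higher with the knockdown, with overlapping libraries. The interaction was called for all 10 genes of the tally. EPRS1 and FARSB were called higher in both lines, and no gene was called lower in both. The Hep3B call of FARSB was lost in DESeq2, with the replicate block, without the low-count filter, at a threshold of 0.01 and without some libraries. For EPRS1 the difference between lines was -0.059 ± 0.065 (adjusted p = 0.492). For FARSB it was -0.19 ± 0.070 (adjusted p = 0.0355), a call lost on library totals and when single libraries were left out (replicates 1 and 3 of each of the 4 groups). That of KARS1 (0.26 ± 0.080, adjusted p = 0.0147) was lost without Hep3B shSLC6A8 replicate 1. Across the 35 genes the changes in the lines had a Pearson correlation of -0.44 and a Spearman correlation of -0.42, against 0.033 and 0.014 over the 14796 genes tested in both lines. Genes are not independent replicates, and all values of a line come from the same 6 libraries.

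The cytosolic genes were also grouped in other ways. The counts of calls stand against 18.9% of all genes called higher and 21.2% lower in Hep3B, and 30.9% and 31.0% in Huh7. Cytosolic genes widely described as ATF4 targets made up 13 of the 19. In Hep3B 7 of these 13 rose and the other 6 were not called (median 0.16), and in Huh7 3 rose and 10 fell (median -0.33). The 6 remaining cytosolic genes had 1 call higher and 1 lower in Hep3B (median 0.010), and 2 higher and 3 lower in Huh7 (median -0.14). EPRS1, IARS1 and VARS1 are the listed targets that rose in Huh7, where HARS1, KARS1 and RARS1 fell without being on that list. By place in the cell, 7 genes of the multisynthetase complex had 2 calls higher and 1 lower in Hep3B (median 0.077) and 3 higher and 4 lower in Huh7 (median -0.235). The 12 cytosolic genes outside it had 6 calls higher in Hep3B (median 0.14), and 2 higher and 9 lower in Huh7 (median -0.40). By catalytic fold, the medians were 0.11 for cytosolic class I (9 genes) and 0.021 for class II (9 genes) in Hep3B, and -0.25 and -0.25 in Huh7. EPRS1 holds both folds and was left out of that split. Mitochondrial class I (9 genes) and class II (7 genes) had medians of -0.095 and -0.041 in Hep3B and 0.19 and 0.016 in Huh7.

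ATF4 itself and other genes of the stress response also differed between the lines (ATF4 is named here after its values were seen, outside the rule for named genes). ATF4 RNA had 269, 258 and 279 CPM in shSLC6A8 libraries, against 276, 299 and 307 CPM in shNC libraries in Hep3B (log2 -0.13 ± 0.055, adjusted p = 0.0908). In Huh7 ATF4 had 332, 337 and 339 CPM in shSLC6A8 libraries, against 448, 496 and 447 CPM in shNC libraries (log2 -0.47 ± 0.049, adjusted p = 3.4e-07). Of the 13 stress genes listed with it, which include ATF4, 5 rose and 3 fell in Hep3B (median 0.19), and 10 fell in Huh7 while 3 were not called (median -1.23). Among all genes tested, 18.9% were called higher and 21.2% lower in Hep3B, and 30.9% and 31.0% in Huh7. ASNS, which makes asparagine itself and is no tRNA enzyme, had 62.9, 57.7 and 62.5 CPM in shSLC6A8 libraries, against 46.1, 46.97 and 46.4 CPM in shNC libraries in Hep3B (log2 0.39 ± 0.058, adjusted p = 0.000468) and 35.3, 38.5 and 37.1 CPM in shSLC6A8 libraries, against 115, 126 and 117 CPM in shNC libraries in Huh7 (log2 -1.69 ± 0.059, adjusted p = 2.33e-13). SLC3A2, the heavy chain of amino acid exchangers, had the smallest adjusted p of the list in Huh7, at 148, 151 and 161 CPM in shSLC6A8 libraries, against 699.6, 717 and 692 CPM in shNC libraries (log2 -2.20 ± 0.049, adjusted p = 1.05e-15). In Hep3B the smallest adjusted p belonged to DDIT4, an inhibitor of mTORC1 signalling, which fell (log2 -1.87 ± 0.077, adjusted p = 9.09e-08), followed by PHGDH and PSAT1 of serine synthesis, which rose (0.82 ± 0.055 and 0.68 ± 0.047). The 3 genes that fell in Hep3B, DDIT4, TRIB3 and DDIT3, also fell in Huh7. DDIT4 had -1.23 ± 0.054 there. TRIB3 had -1.18 ± 0.095 in Hep3B and -1.385 ± 0.059 in Huh7, and its difference between lines was not called (0.21 ± 0.12, adjusted p = 0.159 in the interaction test).

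Set against each other by amino acid, 16 of the amino acids gave 17 pairs of a cytosolic and a mitochondrial gene, FARS2 being paired with both subunits of the cytosolic enzyme and EPRS1 with both EARS2 and PARS2. In Hep3B the cytosolic gene had the larger log2 change in 15 pairs and the smaller in 2 (histidine and proline), with a median difference of 0.22. In Huh7 it had the larger change in 4 pairs (arginine, phenylalanine for FARSB, proline and valine) and the smaller in 13, with a median difference of -0.30. Both genes were called in 2 pairs in Hep3B, and these, tryptophan (WARS1 0.32, WARS2 -0.66) and methionine (MARS1 0.34, MARS2 -0.46), moved in opposite directions, though the call of MARS2 was lost on library totals. Both were called in 9 pairs in Huh7, and in 5 the cytosolic gene fell while the mitochondrial gene rose: asparagine, cysteine, leucine, serine and threonine. The serine pair had SARS1 at -0.53 and SARS2 at 0.50, and the threonine pair TARS1 at -0.52 and TARS2 at 0.44. The histidine and arginine pairs fell together in Huh7, and the glutamate and isoleucine pairs rose together.

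In level, the cytosolic gene of a pair was above its mitochondrial counterpart in all but a few cases. The ratio of TPM in shNC ran from 0.575 to 19.0 in Hep3B and from 1.15 to 33.2 in Huh7. IARS2 stood above IARS1 in Hep3B, with ratios of 0.673 in shSLC6A8 and 0.575 in shNC, and CARS2 above CARS1 with 0.966 in shSLC6A8 and 0.700 in shNC. In Huh7 the cysteine ratio was 1.01 in shSLC6A8 and 2.66 in shNC. The methionine ratio was the highest in both knockdown groups and in Huh7 shNC, at 28.2 in Hep3B shSLC6A8 against 16.2 in Hep3B shNC, and 21.8 in Huh7 shSLC6A8 against 33.2 in Huh7 shNC.

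**Figure D5:**
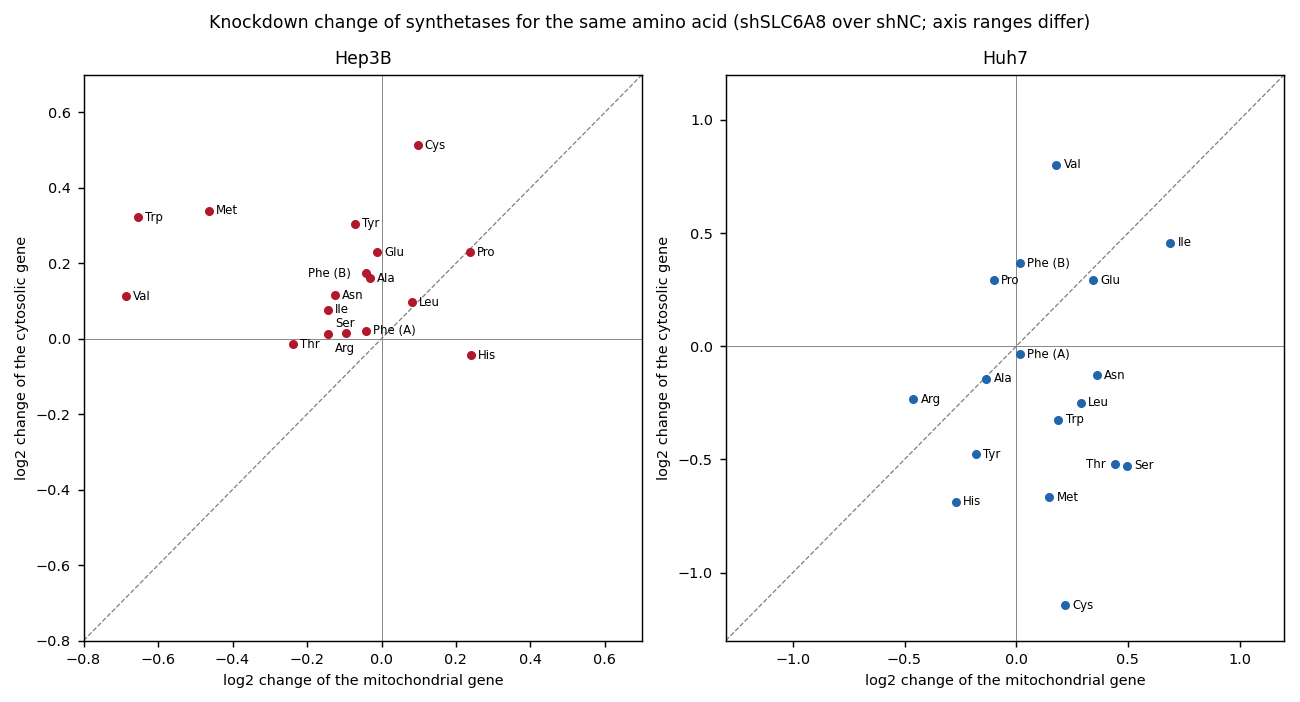
Log2 change (shSLC6A8 over shNC) of the cytosolic gene against that of the mitochondrial gene for the same amino acid, 17 pairs per line; Phe (A) and Phe (B) are FARSA and FARSB, and the axis ranges of the panels differ. Points above the dashed line of equal change number 15 in Hep3B and 4 in Huh7.

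Genes that work beside the synthetases were taken from lists of related genes. The scaffold protein gene AIMP1 fell in both lines, with 39.8, 37.99 and 40.96 CPM in shSLC6A8 libraries, against 54.5, 52.3 and 53.3 CPM in shNC libraries in Hep3B (log2 -0.43 ± 0.059, adjusted p = 0.000268) and -0.28 ± 0.060 in Huh7 (adjusted p = 0.00067). AIMP2 rose in Hep3B (log2 0.37 ± 0.084, adjusted p = 0.00628), and EEF1E1 was called in neither line. Of 4 related genes (TARS3, AARSD1, SEPSECS and PSTK), SEPSECS, an enzyme that makes selenocysteine on its tRNA, rose in Huh7 (log2 0.35 ± 0.071, adjusted p = 0.000349), while PSTK, the kinase of the step before it (-0.59 ± 0.16), and AARSD1 (-0.19 ± 0.058) fell there, the call of AARSD1 being lost on library totals. In Hep3B these 4 had adjusted p of 0.278 to 0.497. Of the 4 genes that finish mitochondrial glutamine and initiator tRNAs, the formyltransferase MTFMT rose in Hep3B (log2 0.43 ± 0.10, adjusted p = 0.00807) and the amidotransferase subunit GATB fell in Huh7 (log2 -0.19 ± 0.062, adjusted p = 0.0133), a call lost on library totals. The other genes of that list were not called in either line.

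The mitochondrial translation factors (10 genes) had 1 call higher and 3 lower in Hep3B (median -0.12), and 4 higher and 4 lower in Huh7 (median 0.034), against 40.1% of all genes called in Hep3B and 61.8% in Huh7. On library totals the calls were 2 higher and 2 lower in Hep3B (median 0.066) and 5 higher and 2 lower in Huh7 (median 0.139). GFM2, which helps recycle mitochondrial ribosomes, had 22.3, 22.5 and 21.3 CPM in shSLC6A8 libraries, against 41.2, 43.9 and 43.8 CPM in shNC libraries in Hep3B (log2 -0.96 ± 0.065, adjusted p = 2.16e-06) and rose in Huh7 (log2 0.17 ± 0.054, adjusted p = 0.0118). The difference of its change between lines was -1.13 ± 0.077. Genes of mitochondrial tRNA processing and modification (12 genes) had 3 calls higher and 1 lower in Hep3B (median 0.089), and 2 higher and 5 lower in Huh7 (median -0.18), a share of calls near that of all genes in each line. On library totals the calls were 10 higher and 0 lower in Hep3B in edgeR (median 0.28) and 5 higher and 4 lower in Huh7 (median -0.071). PRORP, the nuclease of mitochondrial RNase P, rose in Hep3B (log2 0.67 ± 0.11, adjusted p = 0.000959), and its partner TRMT10C rose in Hep3B (0.27 ± 0.088) and fell in Huh7 (-0.42 ± 0.079). Cytosolic elongation factors (6 genes) had 5 calls lower in each line, with medians of -0.22 in Hep3B and -0.21 in Huh7; on library totals 1 was called lower in Hep3B (median -0.030) and 3 in Huh7 (median -0.108). EEF1A2, a carrier of charged tRNA to the ribosome, led the list (-0.55 ± 0.060 in Hep3B and -1.67 ± 0.053 in Huh7).

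Among the 6 genes whose window holds TTGCATCA (shown above), CARS1, MARS1 and AARS1 rose in Hep3B and fell in Huh7. NARS1 (0.12 ± 0.044), TARS1 (-0.014 ± 0.049) and IARS1 (0.077 ± 0.058) were not called in Hep3B; NARS1 and TARS1 fell in Huh7 and IARS1 rose there. Over all tested genes whose window holds TTGCATCA, 30.6% of 85 were called higher and 23.5% lower in Hep3B, against 20.3% and 22.7% of 11426 genes with a window. In Huh7 31.1% of 90 were called higher and 34.4% lower, against 33.1% and 32.7% of 11805.

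Some members share sequence with neighbours, and the strand setting of the counting was not given in the sources used here, so reads from such stretches cannot be assigned with certainty. By GENCODE v29 exons, 46.2% of the exon bases of SARS2 are also exon of a gene on the same strand (AC011455.2) and 10.8% of MRPS12 on the other strand. For VARS2, 22.0% are shared with GTF2H4 on the same strand. HARS1 and HARS2 lie head to head and share 437 bases on opposite strands (5.6% and 11.7% of their exons), and MARS1 shares 5.1% with DDIT3 on the other strand. DDIT3, also one of the stress genes, fell in both lines (-0.59 ± 0.092 in Hep3B and -1.46 ± 0.081 in Huh7). These are not the only overlaps. Among others, EARS2 shares 6.5% with UBFD1 and WARS2 4.7% with AL359915.2 on the other strand, and HARS2 4.1% with ZMAT2 on the same strand. How far these overlaps bear on the values was not tested.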

How the data were processed

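Messenger RNA was measured in 12 libraries of 4 groups, taken from the labels. Per the labels' protocols, RNA extraction used an RNAfast-2000 kit and library preparation a SMARTer kit. The submitters' processing notes name the build GRCh38.p14. How reads were aligned and counted, with which gene models and whether by strand, was not given in the sources used here. Each line had its own table, which lists for every gene and library an estimated count and a TPM, per the file headers. The deposited estimated counts are not normalized, as their sums differ between libraries. The deposited TPM, normalized for length and library total, served for levels only. The authors' own comparison stands beside them as a ratio (fold), a log2 value and p-values, raw and adjusted. Genes listed by Ensembl ID with no symbol held 0.810% to 2.10% of counts and were kept.

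Estimated counts were rounded to whole numbers, and genes were kept by filterByExpr. After TMM scaling, each line's 6 libraries were fitted over all genes with no covariate in edgeR 4.0.16 (R 4.3.3), using its robust quasi-likelihood F test. Adjusted p-values are Benjamini-Hochberg over all genes tested, and the threshold was 0.05. SE is the absolute log2 change over the square root of F and is approximate. The lines' changes were compared by the interaction term of 1 fit over 12 libraries. Variation between replicates was 7.77% in Hep3B and 5.92% in Huh7. No replicate pair agreed within sampling noise, and other columns of sample values numbered 0. The steps were tested on simulated counts.

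The name rule found 37 genes, of which 2 are not reported here and were left out of all counts, sums and medians over the genes. The members, the gene lists and the rule for named genes (all members, and up to 3 genes per related list, line and direction by adjusted p) were chosen with earlier results of these data known. Promoter windows came from RefSeq and exon overlaps from GENCODE v29 (GRCh38). As alternatives, limma-voom (limma 3.58.1), DESeq2 1.42.0, DESeq2 size factors, library totals, other filters, a threshold of 0.01, a replicate block, 1 fit of 12 libraries, the cytosolic set without GARS1 and KARS1, a median in place of a sum, and leaving out each library were tried. The depth was 21065965 to 28078068 estimated counts per library.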

Additional observations from a re-analysis of the deposited data

Results flagged for a closer look

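For 27 of the 35 genes the knockdown changed the RNA differently in the lines, by the test of the difference itself (edgeR's interaction over 12 libraries, adjusted p under 0.05, which 47.1% of all genes tested passed). Values are log2 differences, the Hep3B change minus the Huh7 change. Among cytosolic genes the difference was positive for CARS1 (1.66), MARS1 (1.01), GARS1 (0.95), YARS1 (0.79), WARS1 (0.65), HARS1 (0.65), SARS1 (0.54), TARS1 (0.51), LARS1 (0.35), AARS1 (0.31), RARS1 (0.26), KARS1 (0.26) and NARS1 (0.25). It was negative for QARS1 (-0.69), VARS1 (-0.68), IARS1 (-0.38) and FARSB (-0.19). Among mitochondrial genes it was positive for HARS2 (0.51) and RARS2 (0.37). It was negative for VARS2 (-0.86), WARS2 (-0.84), IARS2 (-0.83), TARS2 (-0.68), SARS2 (-0.63), MARS2 (-0.61), NARS2 (-0.48) and EARS2 (-0.35).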

How the results depend on the processing

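With library totals in place of TMM, all-gene calls in Hep3B were 6230 higher and 1941 lower (3061 and 3427 with TMM; 1774 higher at a threshold of 0.01), the cytosolic set had 18 higher and 0 lower with a median of 0.304, and the mitochondrial set 6 higher and 2 lower with a median of 0.107, which reverses its sign. The median over all genes was then 0.203 in Hep3B, 0.105 in Huh7 and 0.101 for the difference. In Huh7 the medians were then -0.143 (cytosolic) and 0.288 (mitochondrial), and the cytosolic median of the difference was 0.391. At a threshold of 0.01 the Hep3B counts were 0 lower (cytosolic), and 0 higher and 3 lower (mitochondrial).

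Leaving out each library gave -0.260 to -0.221 for the Huh7 cytosolic median, 0 to 1 Hep3B cytosolic genes called lower (QARS1), and 0 to 1 mitochondrial genes higher and 3 to 5 lower in Hep3B. Of the 15 genes called in Hep3B, 8 were called in every setting, as were 24 of 27 in Huh7 and 25 of 27 for the difference. Within a comparison, no gene was called higher in some setting and lower in another.

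Summed cytosolic TPM without GARS1 and KARS1 was 1531 in Hep3B shSLC6A8, 1229 in Hep3B shNC, 1682 in Huh7 shSLC6A8 and 1623 in Huh7 shNC, and the ratios 3.89, 3.34, 4.18 and 4.92. The ratio of medians was 4.95, 4.40, 4.57 and 6.05 in that order.

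Sign changes numbered 26 of 525 values in Hep3B, 11 of them on library totals. In Huh7 and for the difference they numbered 5 of 525 each. Except for QARS1 and IARS2 in Hep3B, they touched genes that were not called. On library totals in Hep3B they were EARS2 (0.18), RARS2 (0.095), AARS2 (0.16), YARS2 (0.12), IARS2 (0.047), NARS2 (0.065), SARS2 (0.046), FARS2 (0.15), HARS1 (0.15), TARS1 (0.18) and QARS1 (0.0078). In Huh7 they were PARS2 (0.0034) and FARSA (0.069), and for the difference EPRS1 (0.024) and FARS2 (0.029). In 1 fit of 12 libraries EARS2 in Hep3B was 0.0006. When libraries were left out, the ranges that crossed 0 were -0.0659 to 0.0862 for FARS2 and -0.0819 to 0.0179 for FARSA in Huh7. In Hep3B they were -0.048 to 0.0199 (EARS2), -0.0535 to 0.058 (KARS1), -0.0073 to 0.0671 (RARS1), -0.153 to 0.0307 (FARS2), -0.0264 to 0.046 (FARSA), -0.0447 to 0.0182 (TARS1) and -0.0251 to 0.0459 (SARS1), and for the difference -0.1631 to 0.0304 (FARS2).

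The cause of these shifts was not tested. The values of related lists on library totals, given with those lists, were added after seeing the data. Same-numbered libraries had correlations of -0.095 to 0.095, and differently numbered ones of -0.176 to 0.216. No pairing by number was seen, but with 3 libraries per group this check cannot exclude it. With the replicate block the counts in Hep3B were 7 higher and 1 lower (cytosolic) and 1 higher and 4 lower (mitochondrial), in Huh7 5 and 12, and 7 and 2, and for the difference 13 positive and 3 negative, and 2 and 8. Depth and 3 libraries per group limit what can be called: FARS2, at 7.34 to 15.5 CPM, had an SE of 0.115 in each line.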
